A study of Mus musculus with 77 samples.

Results

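Cyp2b10, Cyp2b23 and Cyp2b9 are mouse genes of the Cyp2b subfamily of cytochromes P450, and they were taken by symbol as 3 of the 18138 rows of a liver bead-array signal table. The table has 2 further rows of the subfamily, Cyp2b13 and Cyp2b19, which are used for comparison. RNA came from livers of male B6C3F1 mice, an F1 hybrid stock used in carcinogenicity testing, after 7 days of exposure, and 77 samples fell into 18 groups. Phenobarbital (PB) was given at 75, 150, 300 and 600 ppm beside 4 PB controls. Di(2-ethylhexyl) phthalate (DEHP) was given at doses labelled 0.75K, 1.5K, 3K and 6K, n-butyl benzyl phthalate (BBP) at 1.5K, 3K, 6K and 12K, and di-n-octyl phthalate (DNOP) at 1.25K, 2.5K, 5K and 10K, beside 10 phthalate controls. Each dose group held 4 samples, except 10K DNOP with 3. Samples of a PB dose shared label numbers: 13 and 20 at 75 ppm, 2 and 89 at 150, 38 and 15 at 300, and 23 and 98 at 600. The PB controls were numbered 41, 82 and 12, and the phthalate controls 32, 45, 63 and 75. Each phthalate dose sample had a number of its own. What the number marks is not stated. The labels write ppm after K on 1 BBP dose, and name neither the exposure medium nor an age. DEHP and DNOP are isomers with branched and linear side chains, and BBP carries a butyl and a benzyl group. The design sets a barbiturate beside phthalates with graded activity at the nuclear receptor PPARA and asks at which dose each gene responds.

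Cyp2b enzymes sit in the endoplasmic reticulum of hepatocytes and oxidise drugs, pesticides and steroids. Phenobarbital leads the nuclear receptor CAR, encoded by Nr1i3, to move from the cytoplasm into the nucleus, where it pairs with the retinoid X receptor (Rxra) and binds an enhancer far upstream of Cyp2b10, the usual readout of CAR in mouse liver. Cyp2b9 is known as a gene that female mouse livers express and adult male livers hold low. Por, the P450 reductase, passes electrons to all of these enzymes.

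The subfamily lies together on chromosome 7, where the RefSeq gene table orders it as Cyp2b10, Cyp2b28-ps, Cyp2b27-ps, Cyp2b13, Cyp2b26-ps, Cyp2b9, Cyp2b23 and Cyp2b19. The stretch from 100 bases before the annotated start to 20 bases after it is shown for the 3 genes, because Cyp2b10 and Cyp2b23 were called higher with PB and Cyp2b9 was not. Sequences are RefSeq's for build GRCm38.p6, read 5′ to 3′ on the gene's strand, and capitals mark the TATA-like hexamer ATAAAA. The Cyp2b10 stretch is chr7:25897558-25897677 on the plus strand, the Cyp2b23 stretch is chr7:26686411-26686530 on the minus strand, and the Cyp2b9 stretch is chr7:26173309-26173428 on the plus strand.
Cyp2b10: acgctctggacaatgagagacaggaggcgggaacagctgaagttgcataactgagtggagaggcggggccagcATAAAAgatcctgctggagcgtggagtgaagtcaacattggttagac
Cyp2b23: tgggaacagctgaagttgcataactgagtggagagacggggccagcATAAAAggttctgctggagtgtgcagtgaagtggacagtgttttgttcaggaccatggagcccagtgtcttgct
Cyp2b9: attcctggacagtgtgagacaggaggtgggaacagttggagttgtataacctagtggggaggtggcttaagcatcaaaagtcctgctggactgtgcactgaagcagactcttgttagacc
Cyp2b10 held the hexamer 27 to 22 and 233 to 228 bases before its start and Cyp2b23 held it 54 to 49 bases before its start. The whole Cyp2b9 window of 300 bases (250 before the start, 50 from it) held none on either strand. Distances count from the annotated starts. The printed bases beside the nearer Cyp2b10 match and the Cyp2b23 match are nearly the same. Cyp2b19, which was detected on no array, held it 9 to 4 and 246 to 241 bases before its start. The bases directly after its nearer match equal those after the nearer Cyp2b10 match, so this flank is not particular to the genes called with PB. Of 32851 mouse promoter windows of that length, 18.5% held ATAAAA on at least 1 strand, and 1.98% held it on the gene's strand 15 to 45 bases before the start, where one of the Cyp2b10 matches lies. A hexamer of nuclear receptor half-sites, AGGTCA, was in 16.3% of the windows. It occurred once each in the Cyp2b23 and Cyp2b9 windows and not in the Cyp2b10 window, whose PB enhancer lies outside it. Aligned over the window, Cyp2b9 and Cyp2b13 were 99.3% identical, Cyp2b10 and Cyp2b9 71.7%, Cyp2b10 and Cyp2b23 65.5%, and Cyp2b23 and Cyp2b9 65%. These shares count gaps among the aligned columns (339 for Cyp2b10 and Cyp2b23, 311 for Cyp2b10 and Cyp2b9). A shift between annotated starts therefore lowers them, and they do not rank how close the promoters are. The array's probe sequences were not used here, so whether transcripts of the subfamily bind each other's probes was not tested.

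In control livers, all 3 genes were at the background of the arrays. The detection p of a signal states its rank among beads that match no transcript, and a gene was called detected at a value under 0.05. Cyp2b10 was detected on 1 of 10 phthalate controls and on 0 of 4 PB controls, with detection p of 0.0415 to 0.833 in the first and 0.0568 to 0.504 in the second. Cyp2b9 and Cyp2b23 were detected on no control of either kind, and their lowest control values of detection p were 0.125 and 0.107. Over all groups, Cyp2b10 was detected on 26 of 77 arrays, Cyp2b23 on 23 and Cyp2b9 on 19, against 4 for Cyp2b13 and 0 for Cyp2b19. Cyp2b19, an epidermal enzyme, stayed out of the fit, which took the 11324 genes (62.4% of those in the table) detected on at least 3 arrays. The 3 genes of interest passed that filter through the groups in which they were high.

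**Figure D1:**
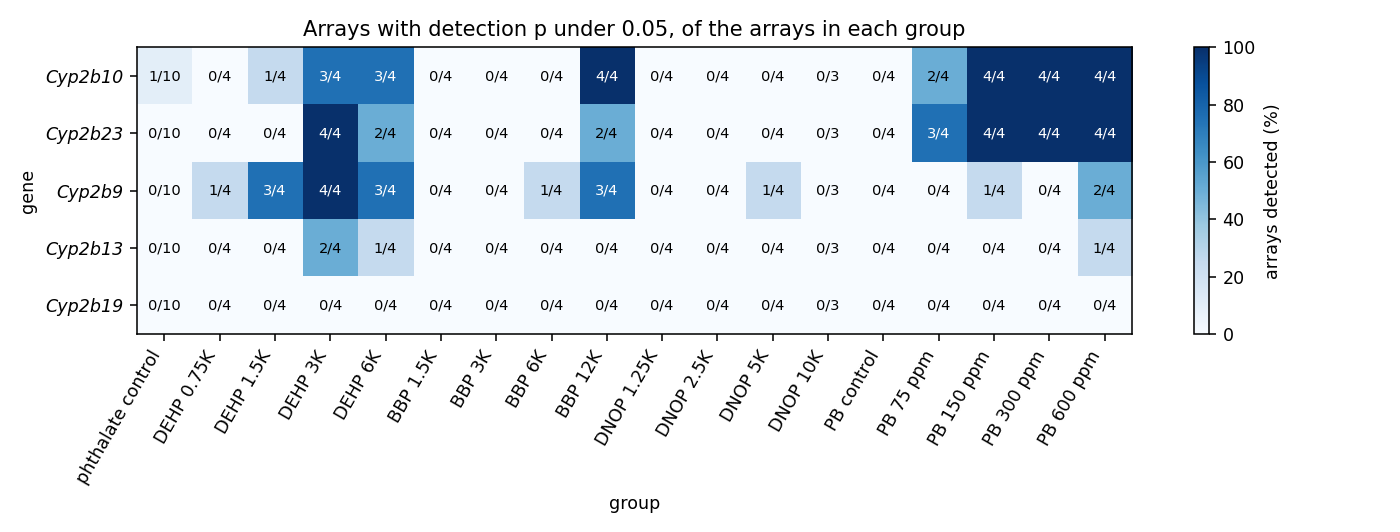
Number of arrays with a detection p under 0.05 (gene rows) of the arrays in each group (columns), with colour for the percent detected. Columns run from the phthalate controls through rising doses of DEHP, BBP and DNOP, then from the PB controls through rising PB doses. Cyp2b10 and Cyp2b23 fill the PB doses from 150 ppm, Cyp2b9 is densest at 1.5K to 6K DEHP and 12K BBP, and Cyp2b19 is detected nowhere.

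Detection understated the signal of Cyp2b10 in places and overstated it in others. Its detection p lay on the steps that the negative controls allow on 16.9% of arrays, against 100% for Cyp2b9, Cyp2b23, Cyp2b13 and Cyp2b19. In PB 75 ppm replicate 2, Cyp2b10 had a signal of 260 and a detection p of 0.136, while 420 of the 421 genes on those steps with a signal within 10% of it were detected. The same held in PB 75 ppm replicate 3 (signal 191, detection p 0.074, 391 of 391 such genes detected) and in 6K DEHP replicate 3 (signal 249, detection p 0.0602, all but 2 of 495 detected). At 3K DEHP it went the other way. In replicate 1, Cyp2b10 was detected at a signal of 108.3 (detection p 0.0327), while Cyp2b13 at 108.6 was not (0.0927). In replicate 3, Cyp2b10 at 121.4 had a lower detection p (0.0145) than Cyp2b13 at 127.4 (0.0251). Detection calls of Cyp2b10 can thus err in either direction, and it is described by its signal as well as its detection.

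The libraries carried hepatocyte transcripts: 10 to 12 of 13 hepatocyte markers were detected on all arrays of 6K DEHP, PB 600 ppm and both control groups, and 0 of the 13 were called at PB 600 ppm and 1 fell at 6K DEHP. Of the zonal lists, 3 of 15 tested pericentral genes rose and 0 fell at PB 600 ppm, while 2 rose and 2 fell at 6K DEHP. Of 16 periportal genes, 1 fell and 0 rose at PB 600 ppm, and 5 fell and 0 rose at 6K DEHP. Over all tested genes, 5.62% fell at PB 600 ppm and 4.15% fell at 6K DEHP, beside 4.34% and 5.24% that rose. With arrays centred on their median, where the median of all tested genes moved by 0.536 at PB 600 ppm and 0.145 at 6K DEHP, 9 pericentral genes rose at PB 600 ppm and 1 at 6K DEHP, with none falling, and 4 periportal genes rose at PB 600 ppm and 1 fell at 6K DEHP. The mean log2 level of the periportal list spanned 8.80 to 9.08 at 6K DEHP and 9.12 to 9.61 in phthalate controls. For the pericentral list it spanned 8.64 to 8.88 at PB 600 ppm and 8.10 to 8.28 in PB controls. The pericentral list holds P450 genes, among them Cyp2c29, Cyp2a5 and Cyp1a2, and Aldh1b1 is on both zonal lists. A change in a list's count or mean therefore need not be zonal. Of markers of other liver cells, 1 of 10 tested Kupffer cell genes rose and 2 of 9 stellate cell genes fell at PB 600 ppm, and 1 of 10 endothelial, 1 of 9 stellate cell and 1 of 6 red cell genes fell at 6K DEHP. None of 5 bile duct or 8 lymphocyte and neutrophil genes was called in either group. The part of zonal or cell type shifts in the results below was not tested, and in whole liver fewer cells of a type and less RNA per cell cannot be told apart. Arrays had 36.88% to 46.64% of genes detected and mean signals of 132.2 to 519.5. Mean signals were 341.6 to 400.2 at PB 600 ppm and 132.2 to 332.0 in PB controls, of which replicate 1 was the dimmest array. Levels given as log2 are background-corrected and quantile-normalized, and signals are as deposited.

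Phenobarbital raised Cyp2b10 at every dose. Its signals in PB controls were 78, 91, 103 and 101. At 75 ppm they were 649, 260, 191 and 1573, at 150 ppm 3715, 2843, 3790 and 3321, at 300 ppm 4405, 4020, 5640 and 4636, and at 600 ppm 4961, 5310, 6063 and 5221. Every PB array lay above every PB control at each dose, and the 75 ppm arrays were the most spread, with a 4-array SD of 1.19 on the log2 scale against 0.143 to 0.218 at the higher doses. The log2 change against PB controls was 4.65 ± 0.28 (SE) at 75 ppm, 7.05 ± 0.28 at 150 ppm, 7.62 ± 0.28 at 300 ppm and 7.73 ± 0.28 at 600 ppm. The limma fit's adjusted p was 1.51e-20, 2.41e-30, 2.99e-32 and 1.29e-32 in the same order of doses. Because no PB control was detected, the folds are bounds. Each bound holds for its background model, compares means and leaves out the spread between samples. In rising order of dose the bounds were 24.1-fold, 127-fold, 188-fold and 203-fold. Without background correction the bounds were 6.28-fold, 28.7-fold, 41.9-fold and 45.3-fold. At 600 ppm, Cyp2b10 had the highest log2 change of the 11324 genes tested.

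Cyp2b23 moved with it. Its signals in PB controls ran from 77 to 95, none detected. They were 174, 100, 102 and 375 at 75 ppm, 1017, 760, 1120 and 781 at 150 ppm, 1232, 1205, 1897 and 1238 at 300 ppm, and 859, 2003, 2242 and 2170 at 600 ppm. From 150 ppm all 4 arrays of each dose were detected and stood well clear of the controls, while at 75 ppm replicate 2 had a detection p of 0.12 and a signal close to theirs. Against PB controls, the log2 change was 2.33 ± 0.42 (SE, limma adjusted p = 2.66e-04) at 75 ppm and 6.16 ± 0.42 (1.95e-18) at 600 ppm. The bounds of the fold were 4.32 and 61.6. They leave out the spread between samples, and the 95% confidence intervals of the log2 changes began at 1.48 and 5.32. With no background correction the bounds were 1.91-fold and 14.1-fold. At 75 ppm the call was lost when each array was centred on its median (log2 change 1.84, limma adjusted p = 0.0596) and with the background that limma's neqc function infers (0.60, 0.065). Without replicate 2 the 75 ppm change was 3.01, and without replicate 4 it was 1.88, both called. By log2 change, Cyp2b23 was the gene with the third highest rise at 600 ppm.

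Cyp2b9 had no called change at any PB dose. Its signals at 600 ppm were 124, 113, 147 and 121, with 2 of 4 arrays detected, against 76 to 98 in PB controls. The normalized levels of all 4 arrays at 600 ppm lay above all 4 PB controls, but the log2 change of 0.73 ± 0.48 (SE, 95% confidence interval -0.22 to 1.68) had a limma adjusted p of 0.345. At 75, 150 and 300 ppm the log2 changes were 0.16, 0.34 and 0.11. Thus 2 of the 3 genes were called higher at each PB dose, where 2.53%, 4.77%, 3.23% and 4.34% of all tested genes were called higher from 75 to 600 ppm.

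**Figure D2:**
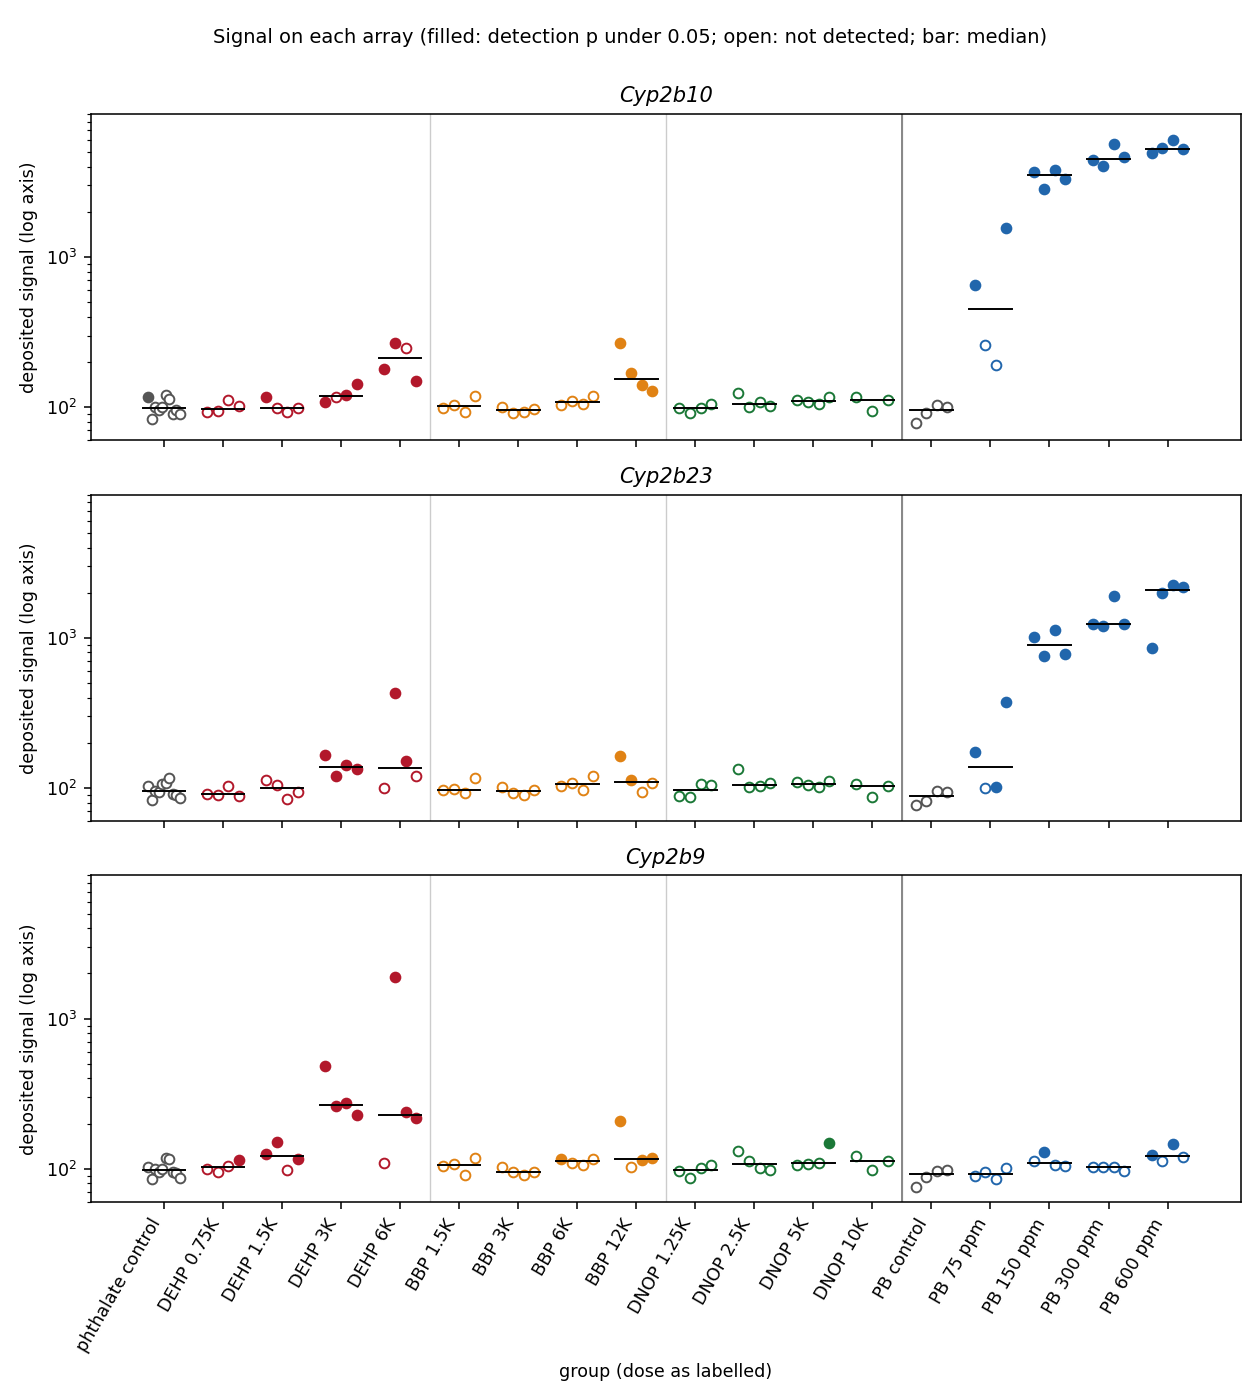
Deposited signal (log axis) of each array by group. Groups run from the phthalate controls through rising doses of DEHP, BBP and DNOP, then from the PB controls through rising PB doses. Filled points have a detection p under 0.05, open points do not, and bars are medians. The median of Cyp2b10 is 5265 at PB 600 ppm, 95.69 in PB controls and 98.05 in phthalate controls, while Cyp2b9 reaches 1898 on 1 array of 6K DEHP.

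The dose at which PB acted was read from steps between neighbouring doses. From 75 to 150 ppm, Cyp2b10 rose by a further 2.40 on the log2 scale (limma adjusted p = 6e-08) and Cyp2b23 by 2.89 (2.95e-05), in a step where 0.0265% of tested genes, or 3 genes, were called higher. From 150 to 300 ppm the changes were 0.56 and 0.79 (limma adjusted p = 1 for both), although the 4 arrays at 300 ppm lay above the 4 at 150 ppm for each gene. From 300 to 600 ppm they were 0.11 and 0.15 (adjusted p = 1 for both), with standard errors of 0.28 and 0.43. Per doubling of dose over the 4 doses, Cyp2b10 rose by 0.98 (limma adjusted p = 1.06e-12) and Cyp2b23 by 1.23 (8.59e-10), where 0.583% of tested genes were called higher, and Cyp2b9 had a slope of 0.15 (0.863).

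At PB 75 ppm the arrays differed in brightness as well as in Cyp2b10. Mean signals over all genes were 241.9, 301.3, 179.9 and 373.0 in replicates 1 to 4. After normalization, Cyp2b10 levels were 9.92, 7.72, 8.62 and 10.30 on the log2 scale, and Cyp2b23 levels were 7.38, 4.55, 6.51 and 7.99. Replicate 2 was lowest for both genes and replicate 4 highest. The part of array brightness in this spread was not tested.

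DEHP raised Cyp2b9 at 3K and 6K. Cyp2b9 signals in the phthalate controls ran from 86 to 119 with a median of 97.56. They were 126, 152, 98 and 117 at 1.5K, 483, 262, 274 and 229 at 3K, and 110, 1898, 238 and 219 at 6K, with 3, 4 and 3 of 4 arrays detected. All 4 arrays at 3K lay clear of the controls in signal, whereas at 6K replicate 2 was far above the others and replicate 1 was within the control range of signals. In normalized log2 level all 4 arrays at 6K lay above every control, the lowest, replicate 1, at 4.75 against a highest control of 4.57. The log2 change was 3.01 ± 0.39 (SE, limma adjusted p = 3.35e-08) at 3K and 2.64 ± 0.39 (8.18e-07) at 6K. The bounds of the fold, which compare means and leave out the spread between samples, were 7.47 and 5.78 in this background model. The confidence intervals of the log2 changes began lower, at 2.23 and 1.85. Without background correction the bounds were 2.47-fold and 2.49-fold. These bounds do not hold over all settings: the lowest folds over 5 scalings were 1.8 at 3K and 2.19 at 6K. With neqc the log2 changes were 0.85 and 1.13, both still called. Without 6K replicate 2 the change at 6K was 1.53, still called, and without 6K replicate 1 it was 3.39. At 1.5K the change was 0.93 ± 0.39 (adjusted p = 0.183), with all 4 normalized levels above every control, and at 0.75K it was 0.27 (0.851).

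Cyp2b10 was called at 6K DEHP. Its signals there were 179, 267, 249 and 149, against a lowest, median and highest of 83, 98.05 and 120 in the 10 phthalate controls. All 4 arrays were above all controls, and the log2 change was 1.97 ± 0.23 (SE, limma adjusted p = 1.18e-09). With 9 of the 10 controls undetected, the size of the rise is not firm, and it ranged from 1.26-fold to 4.47-fold over 5 scalings. The call was lost with neqc's background (log2 change 0.33, adjusted p = 0.364). At 3K the signals were 108, 117, 121 and 143, 3 of 4 detected, and the log2 change of 0.49 had an adjusted p of 0.201. The 2 lower doses gave 0.05 at 1.5K and 0.04 at 0.75K. Between 3K and 6K, Cyp2b10 was the single gene called of 11324 (0.00883%; log2 change 1.48, limma adjusted p = 0.00968), and 517 genes had an unadjusted p under 0.05. That call was lost without 3K replicate 1, 2 or 3 or 6K replicate 2 or 3, and in 4 of 11 other settings.

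Cyp2b23 also rose at 3K and 6K DEHP, by amounts near the limit of the arrays. Its signals were 167, 120, 142 and 133 at 3K and 100, 429, 152 and 121 at 6K, against a lowest, median and highest of 83, 94.83 and 117 in the phthalate controls. At 6K the array with the highest Cyp2b9, replicate 2, also had the highest Cyp2b23, and replicate 1 was lowest for both. The log2 change was 1.09 ± 0.35 (SE, limma adjusted p = 0.0359) at 3K and 1.21 ± 0.35 (0.0155) at 6K. The bounds, which leave out the spread between samples, were 1.92-fold and 2.08-fold in this background model. Without background correction they were 1.24-fold and 1.38-fold. Without 6K replicate 2 the 6K change was 0.42 (adjusted p = 0.572), and without 3K replicate 1 the 3K change was 0.80 (0.253). The 3K call was also lost without 3K replicate 3 or 4 (1.17 each, adjusted p = 0.0551 and 0.0564), so it held in 1 of the 4 fits that left out a 3K array. Neither dose was called with no background correction (adjusted p = 0.212 at 3K and 0.051 at 6K), with neqc (log2 changes of 0.14 and 0.32) or with an offset of 50 (0.53 and 0.72). Counting all 3 genes, 0, 0, 2 and 3 were called higher from 0.75K to 6K, where 1.13%, 2.54%, 4.45% and 5.24% of tested genes were. At 0.75K none of the 3 had an unadjusted p under 0.05, and at 1.5K Cyp2b9 did.

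Over the 4 DEHP doses, all 3 genes rose per doubling of dose (1.21% of tested genes did): Cyp2b9 by 0.92 (limma adjusted p = 1.23e-05), Cyp2b10 by 0.62 (4.37e-07) and Cyp2b23 by 0.48 (0.0256). Cyp2b9 took its largest step between 1.5K and 3K, where the log2 change of 2.08 had a limma adjusted p of 0.0461 among 0.053% of genes called higher. That step lost its call in 7 of 8 fits without 1 replicate and in 7 of 11 other settings. With neqc the slope of Cyp2b10 was not called (0.10, adjusted p = 0.743). The slope of Cyp2b9 was 0.59 without 6K replicate 2, still called. The slope of Cyp2b23 lost its call without 6K replicate 2 (0.24, adjusted p = 0.451) and without any 1 of the 0.75K replicates (0.47 to 0.48, adjusted p of 0.054 to 0.0586). It was also not called with no background correction (0.21), neqc (0.11), an offset of 50 (0.27) or the deposited matrix (0.22).

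**Figure D3:**
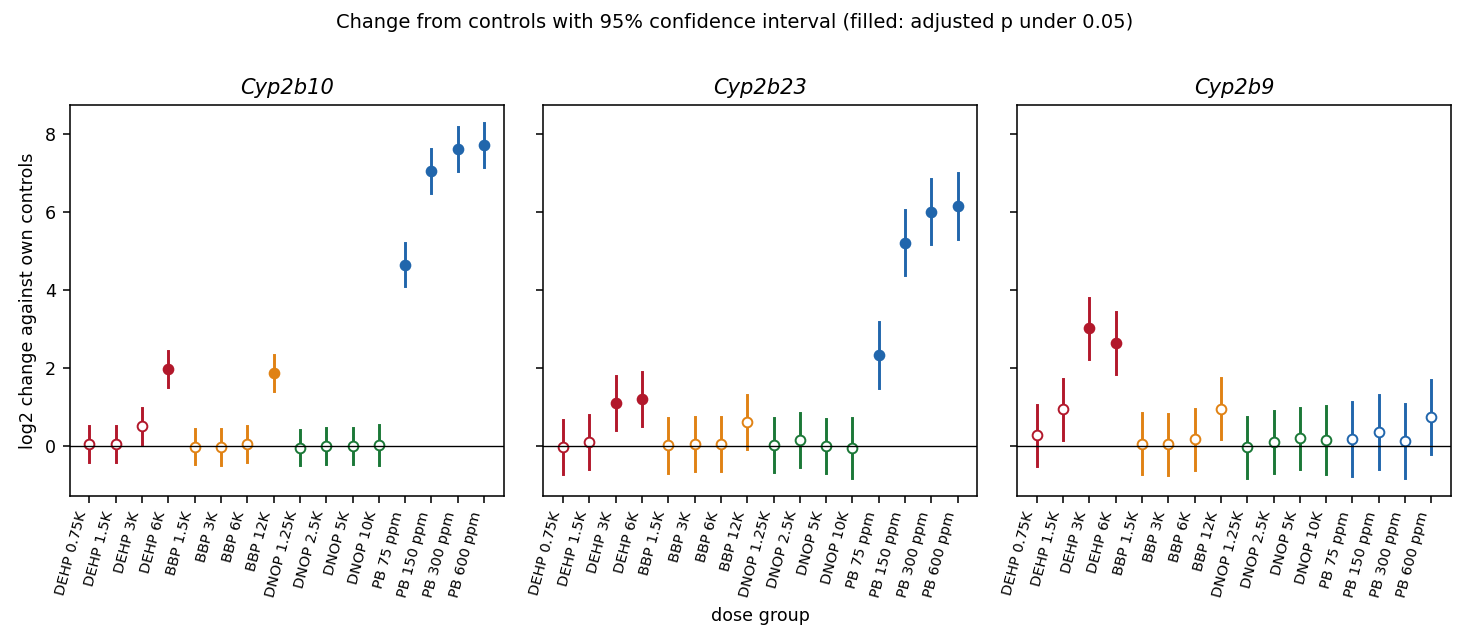
Log2 change of each gene in each dose group against its own controls, with the 95% confidence interval; filled points have a limma adjusted p under 0.05. Cyp2b10 and Cyp2b23 climb to 7.73 and 6.16 at PB 600 ppm, while the highest points of Cyp2b9 are 3.01 and 2.64 at 3K and 6K DEHP.

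BBP reached Cyp2b10 at its top dose. Cyp2b10 signals at 12K BBP were 269, 169, 141 and 129, all detected and all above the highest phthalate control of 120. The log2 change was 1.86 ± 0.23 (SE, limma adjusted p = 6.19e-08), against the same mostly undetected controls, and the fold ranged from 1.25 to 3.73 over 5 scalings. With neqc's background it was 0.32 (adjusted p = 0.471). It was 1 of 3 genes called, where 1.5% of tested genes were called higher. The change from 6K to 12K BBP was 1.83 (limma adjusted p = 2.77e-05, with 0.132% of genes called higher), and this step was not called with no background correction (0.69, adjusted p = 0.104), with neqc (0.31) or in the deposited matrix (0.72). Cyp2b10 rose by 0.57 per doubling of BBP dose (limma adjusted p = 1.36e-05, 0.618% of genes called higher), and not past the threshold with no background correction (0.22, adjusted p = 0.0527).

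Cyp2b9 at 12K BBP had signals of 208, 103, 114 and 119, with a log2 change of 0.94 ± 0.39 (SE, limma adjusted p = 0.228). Cyp2b23 had 162, 113, 95 and 108, with 0.61 ± 0.35 (0.425). Replicate 1 was the highest 12K BBP array for each of the 3 genes. At 1.5K, 3K and 6K BBP, no member was called in the limma fit, none had an unadjusted p under 0.05, and the changes ran from -0.03 to 0.16, while 0%, 0% and 0.053% of tested genes were called higher.

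None of the 3 genes passed the threshold at any DNOP dose. Cyp2b10 signals ran from 95 to 117 on the 3 arrays at 10K, against 83 to 120 in the phthalate controls, and it was detected on no array of any DNOP dose. Its log2 change at 10K was 0.02, with a 95% confidence interval of -0.49 to 0.53. Cyp2b9 at 10K gave 0.15 (-0.72 to 1.02) and Cyp2b23 gave -0.07 (-0.84 to 0.70). In the limma fit, no member had an unadjusted p under 0.05 at any DNOP dose, and 0%, 0.053%, 0.15% and 0.0618% of tested genes were called higher from 1.25K to 10K. DEHP and DNOP shared no dose, so the isomers are set side by side only: at 6K DEHP the changes of Cyp2b10, Cyp2b9 and Cyp2b23 were 1.97, 2.64 and 1.21, and at 5K DNOP they were -0.01, 0.18 and -0.01.

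DEHP and BBP were given at 3 equal doses, which makes 9 comparisons over the 3 genes, each with a p adjusted over all tested genes. At 6K, Cyp2b10 signals were 179, 267, 249 and 149 with DEHP and 104 to 120 with BBP, a log2 difference of 1.94 ± 0.27 (SE, limma adjusted p = 4.87e-07). Cyp2b9 differed by 2.98 ± 0.46 at 3K (4.9e-06) and 2.48 ± 0.46 at 6K (2.13e-04), with signals of 229 to 483 for 3K DEHP and 91 to 103 for 3K BBP. These 3 of 9 were called, where 2.09% of tested genes were higher with DEHP at 3K and 1.67% at 6K. Without 6K DEHP replicate 2 the Cyp2b9 difference at 6K was 1.37, still called. With neqc's background, the Cyp2b10 difference at 6K (0.32, adjusted p = 0.79) and the Cyp2b9 difference at 3K (0.85, 0.117) were not called. Cyp2b23 differed by 1.06 (95% confidence interval 0.24 to 1.87) at 3K and 1.17 (0.36 to 1.98) at 6K, with limma adjusted p of 0.15 and 0.156. At 1.5K the differences were 0.07, 0.89 and 0.09 for Cyp2b10, Cyp2b9 and Cyp2b23, and none had an unadjusted p under 0.05, while 1.13% of tested genes were higher with DEHP.

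The response to the top dose of PB was then set against the response to the top dose of DEHP, each relative to its own controls. The difference of the log2 changes was 5.76 ± 0.36 for Cyp2b10 (SE, limma adjusted p = 1.53e-19) and 4.96 ± 0.55 for Cyp2b23 (1.22e-09), where 1.37% of tested genes responded higher with PB. For Cyp2b9 it ran the other way, at -1.91 ± 0.62 (95% confidence interval -3.14 to -0.67), and its limma adjusted p of 0.0724 missed the threshold. That difference was called when arrays were centred on their median (-2.29, adjusted p = 0.04), without 6K DEHP replicate 1 (-2.66, 0.0013) and without PB 600 ppm replicate 3 (-2.24, 0.0301). The doses differ between the compounds, so this compares 2 dose groups and not potencies. The PB controls and the phthalate controls did not differ past the threshold for any of the 3 genes (log2 differences of 0.10, -0.04 and -0.04 for Cyp2b10, Cyp2b9 and Cyp2b23), while 4.65% of tested genes differed between them. Because the 3 genes were at background in both control groups, a difference between them could hardly show.

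The order of group means followed from these responses. For Cyp2b10 the highest log2 levels were 12.22 at PB 600 ppm, 12.11 at 300 ppm, 11.54 at 150 ppm and 9.14 at 75 ppm, then 6.36 at 6K DEHP, 6.25 at 12K BBP and 4.89 at 3K DEHP. The arrays of 600 and 300 ppm overlapped, and so did those of 6K DEHP, 12K BBP and 3K DEHP. The 11 other groups lay between 4.34 and 4.49. Cyp2b23 had the same 4 PB groups on top, from 10.44 at 600 ppm to 6.61 at 75 ppm, followed by 6K DEHP at 5.53, 3K DEHP at 5.41 and 12K BBP at 4.93, and the arrays of PB 75 ppm and 6K DEHP overlapped. Cyp2b9 was highest at 3K DEHP with 7.37 and at 6K DEHP with 7.00, followed by 12K BBP at 5.30, 1.5K DEHP at 5.29 and PB 600 ppm at 5.05. Each neighbouring pair in the Cyp2b9 order overlapped.

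**Figure D4:**
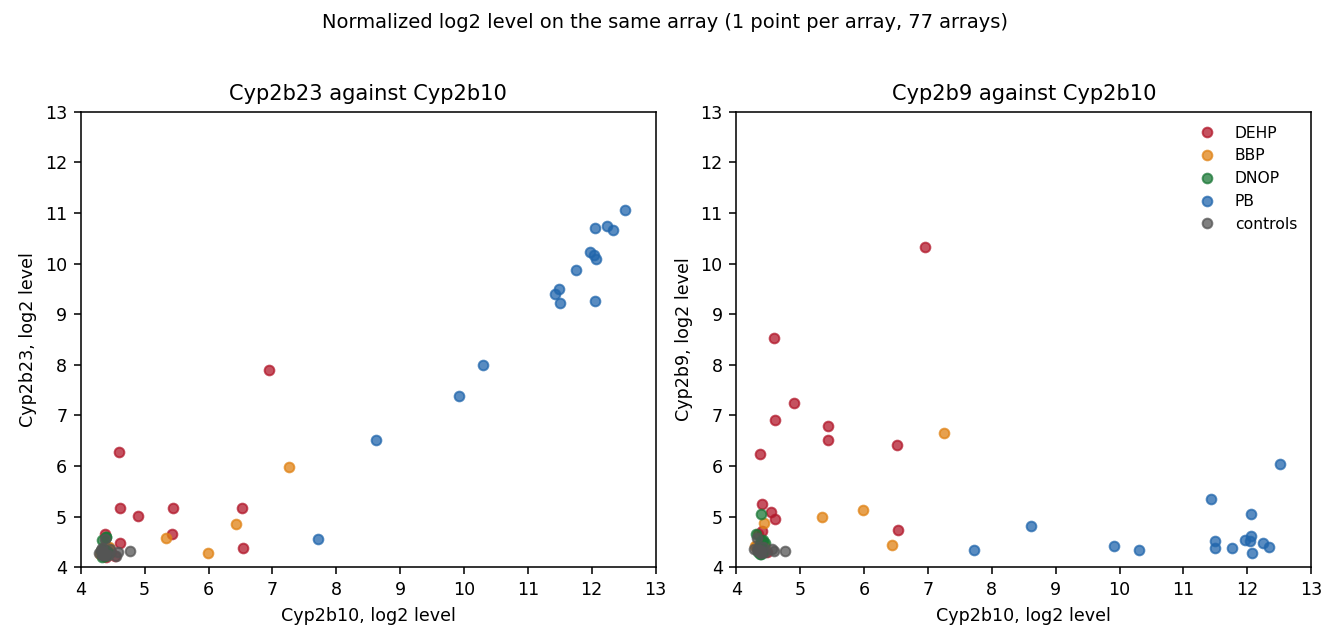
Normalized log2 level of Cyp2b23 (left) and Cyp2b9 (right) against Cyp2b10 on the same array, with 1 point for each of 77 arrays coloured by compound. PB arrays run up the diagonal for Cyp2b23 and lie along the bottom for Cyp2b9, where the DEHP arrays stand highest.

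Over the 18 group means, Cyp2b10 and Cyp2b23 had a Pearson correlation of 0.982, Cyp2b10 and Cyp2b9 of 0.00677, and Cyp2b9 and Cyp2b23 of 0.0498. By Spearman's rank correlation the values were 0.707, 0.552 and 0.424. These points share arrays, and most groups sit at background, so the Pearson values rest on the few groups where a gene was high.

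The genes most like Cyp2b10 over the 18 group means were Cyp2c55 (Pearson 0.987), Cyp2b23, Cyp2c50 (0.949), Cyp2c37 (0.946) and Ccn4 (0.929), a matricellular protein that the array lists as Wisp1. For Cyp2b23 they were Cyp2c55 (0.991), Cyp2b10, Ccn4 (0.958), Cyp2c37 (0.943) and Cyp2c50 (0.941). By Spearman's correlation, 0 of the 5 for Cyp2b10, 0 of the 5 for Cyp2b9 and 1 of the 5 for Cyp2b23 were among the most alike, so these names depend on the measure. Cyp2c55, Cyp2c50 and Cyp2c37 encode arachidonic acid and drug oxidising P450 enzymes of the Cyp2c subfamily. These genes were chosen on the same group means, in which the PB groups stand highest, so their changes are given as a description. At PB 600 ppm against PB controls, the log2 change was 7.20 for Cyp2c55, 2.56 for Cyp2c50, 2.38 for Ccn4 and 1.88 for Cyp2c37. Cyp2c55 was at 1.43 at 6K DEHP and 0.68 at 12K BBP, while Cyp2c37 and Cyp2c50 were at -0.29 and -0.21 at 6K DEHP.

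The genes most like Cyp2b9 were of other kinds: Ctse (0.961), the protease cathepsin E, Cox6b2 (0.961), a cytochrome oxidase subunit of testis, Vldlr (0.958), a lipoprotein receptor, Slc27a1 (0.949), a fatty acid transporter, and Cidec (0.946), a lipid droplet protein. They too were chosen on these group means, where Cyp2b9 is high at 3K and 6K DEHP, and their changes are a description. At 6K DEHP against phthalate controls, the log2 change was 1.68 for Slc27a1, 1.56 for Ctse, 1.23 for Vldlr, 1.10 for Cox6b2 and 0.65 for Cidec. At PB 600 ppm their changes ran from -0.16 for Ctse to 0.12 for Vldlr. On the 4 arrays of 6K DEHP, replicate 1 had the lowest signal of each of these 5 genes as it had for Cyp2b9, for example 120 for Slc27a1, against 243, 242 and 264 on the others. Replicate 2, with the Cyp2b9 signal of 1898, was highest for Ctse (234) and Vldlr (238) and not for Cidec (132), Cox6b2 (177) or Slc27a1.

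Of 52 listed CAR target genes, 41 were tested. At PB 600 ppm 28 rose and 0 fell, with a median log2 change of 1.11 against 0.00785 over all tested genes, of which 4.34% rose. At 6K DEHP 14 rose and 1 fell (median 0.398 against -0.00277, with 5.24% of all tested genes rising). At 12K BBP 6 rose and 0 fell (0.358 against -0.015, with 1.5% rising). With arrays centred on their median, 37 rose at PB 600 ppm and the list's median stood 1.54 above that of all tested genes, against 1.10 as reported. No member of the list was called at 10K DNOP (median 0.203 against -0.00456), where only 0.0618% of all tested genes rose. The list contains Cyp2b10 and was drawn up with results of these data known, so its counts are a description. The targets named next were taken for the size of their called change at a top dose. Cyp3a11, a drug-metabolising P450 shared by CAR and PXR, rose by 4.78 at PB 600 ppm (limma adjusted p = 1.11e-08) and by 3.48 at 6K DEHP (1.32e-07), and was at 1.53 (0.0664) at 12K BBP. Abcc3, an efflux transporter of conjugates, rose by 3.17 at PB 600 ppm (2.15e-11), 2.65 at 6K DEHP (5.1e-12) and 1.96 at 12K BBP (3.61e-07). Ephx1, microsomal epoxide hydrolase, rose by 1.75 at 6K DEHP (2.1e-09). Gstm4, a glutathione transferase, and Aldh1a7, an aldehyde dehydrogenase, rose by 1.15 each at 12K BBP (adjusted p = 5.45e-05 and 0.047).

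Replicate 1 of 6K DEHP was low for several of these genes too. Its Cyp3a11 signal was 1744, against 14820, 14840 and 10250 on the other 3 arrays, and its Cyp2c55 signal was 113, against 361, 310 and 167. For Cyp4a14, a PPARA target that hydroxylates fatty acids, it had 10380 beside 10830, 13620 and 11060. Its mean signal over all genes was 344.7, against 423.1 to 469.6 on the others, and this difference in brightness was not tested as a part of the pattern. Its Cyp2b10 signal of 179 lay between those of the other arrays.

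The receptors and partners of CAR were also followed. Nr1i3 (CAR) rose by 0.95 at 3K DEHP (limma adjusted p = 0.0107) and by 0.76 at 6K (0.048), was at 0.47 (0.392) at 12K BBP, and was at -0.24 (0.684) at PB 600 ppm. Nr1i2, which encodes the xenobiotic receptor PXR, was at 0.23, 0.56 and 0.32 at 6K DEHP, 12K BBP and PB 600 ppm. Ppara was at -0.30, 0.17 and -0.85, and Rxra at -0.28, -0.30 and -0.18 in those groups, with no call. Por rose by 1.76 at PB 600 ppm (4.84e-04) and by 1.13 at 6K DEHP (0.00585). The phthalate values of Nr1i3, Nr1i2 and Por rest on controls that differ among themselves, as described for the controls numbered 32. Without those 3, a setting added for these genes after seeing the data, Nr1i3 at 12K BBP (0.84, limma adjusted p = 0.0323) and Nr1i2 at 6K DEHP (0.55, 0.0366) and 12K BBP (0.87, 7.74e-04) were called.

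Other gene programmes were counted in the same groups, where 5.24% (6K DEHP), 1.5% (12K BBP), 0.0618% (10K DNOP) and 4.34% (PB 600 ppm) of all tested genes rose, and 4.15% and 5.62% fell at 6K DEHP and PB 600 ppm. Of 26 tested PPARA target genes, 20 rose at 6K DEHP, 18 at 12K BBP, 4 at 10K DNOP and 0 at PB 600 ppm, with none falling (9 rose at PB 600 ppm with arrays centred on their median). Cyp4a14 and Ehhadh, a peroxisomal enzyme of fatty acid oxidation, rose by 4.89 and 4.54 at 6K DEHP (limma adjusted p = 5.92e-06 and 1.24e-11), by 5.15 and 4.33 at 12K BBP (7.75e-06 and 1.65e-09) and by 4.32 and 2.50 at 10K DNOP (0.012 for both), a group without any called Cyp2b gene. Of 29 listed genes with higher levels in female liver, 21 were on the array and 11 passed the detection filter. Genes at background in controls, such as Cyp2b9 on this list, passed only through groups in which they were high. The share of all tested genes is therefore no fair background here, and the counts are a description. Of the 11, 8 rose at 6K DEHP (median 1.15), 5 at 12K BBP (0.94) and 0 at PB 600 ppm (0.24), where 1 fell (3 rose and 0 fell with median centring). Of 26 tested genes with higher levels in male liver, 12 fell and 3 rose at 6K DEHP (median -0.453), and 1 fell and 2 rose at PB 600 ppm (-0.071). With median centring those counts were 7 and 2 at 6K DEHP and 3 and 7 at PB 600 ppm.

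Cyp2b13, the neighbour whose promoter window nearly equals that of Cyp2b9, stayed near background. Its signals at 3K DEHP ran from 107.9 to 127.4 with 2 of 4 arrays detected, and at 6K DEHP from 106.4 to 140.6 with 1 detected, against 82.78 to 116.1 in the phthalate controls with 0 of 10 detected. It was called higher by 0.34 on the log2 scale at 3K (limma adjusted p = 0.0124) and by 0.33 at 6K (0.014), where 4.45% and 5.24% of tested genes were. At PB 600 ppm it was at 0.24 (0.171). Of its 4 detected arrays, 2 were at 3K and 1 at 6K DEHP, so it entered the fit through groups in which it was called. How its calls depend on the background setting was not examined here.

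The phthalate controls were not uniform in receptor and PPARA target genes. The 3 controls whose labels share the number 32 had Nr1i3 levels of 8.98 to 9.15, against 7.49 to 8.21 in the 7 others, and Nr1i2 levels of 8.25 to 8.30 against 6.85 to 7.41. They also had higher Por (7.78 to 9.11 against 6.76 to 7.73), Ehhadh (8.28 to 9.59 against 6.31 to 7.24) and Cyp4a14 (11.00 to 12.16 against 4.49 to 9.09). Without them, the changes at 6K DEHP were 1.13 for Nr1i3, 1.48 for Por, 6.25 for Cyp4a14 and 5.12 for Ehhadh, each called in the limma fit. Cyp2b9 in those 3 spanned 4.32 to 4.37 against 4.29 to 4.57, and Cyp2b23 spanned 4.25 to 4.33 against 4.24 to 4.56. Cyp2b10 spanned 4.28 to 4.77 against 4.32 to 4.42, the upper end being replicate 1, the single control array with a detected Cyp2b10. Leaving the 3 out changed the call of 1 dose comparison of the members, Cyp2b23 at 3K DEHP (log2 change 1.08, limma adjusted p = 0.067).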

How the data were processed

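RNA from whole livers was extracted with Trizol and hybridised as biotinylated cRNA to Illumina bead arrays, per the labels' protocols. The deposited table gives, per gene symbol, an average bead intensity that was not normalized, per the file headers. Its detection p-value, also computed by the authors per the file headers, ranks that intensity among negative controls, and 78.27% of values lay on its 798 steps. What software made the table is not given in the sources used here. A normalized intensity matrix deposited by the authors served as an alternative (18132 genes, scale taken as linear and read as log2, rank correlation with the signals of at least 0.9976 on every array, centring not stated).

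Each array's background mean and SD were estimated from those steps in 50 bins and removed with normexp (offset 16), followed by log2 and quantile normalization. Plain neqc, which assumes that every detection p lies on the steps, was kept as an alternative. Genes with a detection p under 0.05 on at least 3 arrays (11324 of 18138) entered a limma 3.58.1 fit (R 4.3.3) of 18 group means. The number in the sample label (62 numbers) was a random block with correlation 0.0991, and p-values were adjusted by Benjamini-Hochberg over all tested genes per comparison, with 0.05 as threshold. What that number marks is not stated, and nothing says that samples came from separate animals, so p-values measure only the spread between samples. The precision is limited by the number of arrays. Where a gene was undetected on every array of the lower group, the fold is a bound against the dimmest detected genes or its own level there. This bound compares means and leaves out the spread between samples. The table's symbols were updated through a RefSeq gene table (14307 current, 2726 older, 1105 unmatched). Promoters are RefSeq's, searched in Python 3.11.15 and aligned with Biopython 1.88.

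Named genes were the 3 members, Cyp2b13 and Cyp2b19, the 5 tested genes closest to each member by Pearson correlation of group means, up to 3 called CAR targets with the largest change at each compound's top dose, and fixed receptor and PPARA genes. The members and all gene lists were chosen with earlier results of these data known. Alternatives changed the background, offset, scaling, filter, block, array weights, controls and each replicate in turn. The fit was tested on simulated data with independent noise around 1 mean per gene, for 6K DEHP against phthalate controls only. Of genes changed by 0.5, 1, 2 and -1 on the log2 scale, 56%, 82%, 100% and 94% were called. Shared label numbers and the loss of signal near background were not simulated, so it does not speak for those.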

Additional observations from a re-analysis of the deposited data

Results flagged for a closer look

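Of the 51 sets of 4 to 10 arrays of 1 group, 10 held an array whose log2 level stood far from the rest by Dixon's ratio. For independent normal values, about 1 in 20 groups, or 2.6 here, would be flagged. Most of these levels lie close to the background floor, so that rate does not hold for them and no excess is read from it. For Cyp2b10 the flagged arrays were 1.5K DEHP replicate 1 at 4.608 (signal 116.2), 1.25K DNOP replicate 2 at 4.362 and phthalate control replicate 1 at 4.765 (signal 116.4). For Cyp2b9 they were PB 75 ppm replicate 3 at 4.821, PB 150 ppm replicate 2 at 5.359 and phthalate control replicate 8 at 4.569. The PB 150 ppm array had a signal of 128.8 and a detection p of 0. For Cyp2b23 they were 3K DEHP replicate 1 at 6.273 (signal 166.9, next highest level 5.179) and phthalate control replicate 5 at 4.564 as high values, and 0.75K DEHP replicate 4 at 4.221 and 6K BBP replicate 3 at 4.256 as low ones. Only 4 of the 10 arrays had a detection p under 0.05 for the gene concerned. Without the high Cyp2b23 array the 3K DEHP change of Cyp2b23 was 0.80 and not called, and it was not called without replicate 3 or 4 either (1.17 each).

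The response to PB 600 ppm exceeded the response to 6K DEHP in a direct test, by 5.76 on the log2 scale for Cyp2b10 and by 4.96 for Cyp2b23.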

How the results depend on the processing

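Values here are log2 changes against the group's controls, or between the groups named. No alternative turned a called change. Over settings other than leaving out 1 replicate, 41 of 1263 values of the 3 genes changed their side of the threshold, and over fits without 1 replicate 24 of 1251 did. The called changes of Cyp2b10 at every PB dose, of Cyp2b23 from 150 ppm and of Cyp2b9 at 3K and 6K DEHP against controls kept their calls in each setting run. Their sizes moved, down to 0.85 at 3K and 1.13 at 6K DEHP for Cyp2b9 with neqc. With no background correction, Cyp2b10 per doubling of BBP (0.22) and Cyp2b23 at 3K (0.40) and 6K DEHP (0.56) and per doubling of DEHP (0.21) were not called. With neqc, calls were lost for Cyp2b10 at 6K DEHP (0.33), 12K BBP (0.32), between DEHP and BBP at 6K (0.32) and per doubling of DEHP (0.10) and BBP (0.10), for Cyp2b9 between DEHP and BBP at 3K (0.85), and for Cyp2b23 at 3K (0.14) and 6K DEHP (0.32), PB 75 ppm (0.60) and per doubling of DEHP (0.11). An offset of 50 lost Cyp2b23 at 3K (0.53) and 6K DEHP (0.72) and per doubling (0.27). The deposited matrix lost Cyp2b23 at 3K DEHP (0.41) and per doubling (0.22). Cyp2b23 at 3K DEHP was also lost with no filter (1.09), with samples of 1 number averaged (1.08) and without the controls numbered 32 (1.08). Median centring lost Cyp2b23 at PB 75 ppm (1.84) and called the PB minus DEHP response of Cyp2b9 (-2.29). Array weights called Cyp2b10 at 3K DEHP (0.52), Cyp2b9 at 1.5K DEHP (1.06) and Cyp2b23 between DEHP and BBP at 3K (1.07). Without 1 replicate, values ran from -2.66 to -0.80 for the Cyp2b9 response difference, and for Cyp2b23 from 0.80 to 1.22 at 3K DEHP, 0.42 to 1.58 at 6K DEHP, 0.38 to 1.55 between DEHP and BBP at 6K and 0.24 to 0.59 per doubling of DEHP. Fewer samples enter those fits, and the cause of the other changes was not tested.

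The replicate numbers in the labels did not pair samples (mean correlation of same-numbered deviations 0.0344 among phthalate doses and -0.0262 in PB groups). With that number as a block, Cyp2b10 changed by 7.73 at PB 600 ppm and 1.96 at 6K DEHP, Cyp2b9 by 2.64 and Cyp2b23 by 1.20 at 6K DEHP, and the Cyp2b9 step from 1.5K to 3K DEHP (2.08, limma adjusted p = 0.0501) was the single call of the 3 genes lost.

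Counts of called genes moved more: 91 of 421 alternative counts, and 104 of 417 without 1 replicate, differed by over 1.5 times. Genes called at PB 600 ppm were 1128 (588 to 5152 over other settings), at PB 75 ppm 731 (18 to 1001), at 3K DEHP 956 (619 to 2164) and at 12K BBP 333 (118 to 1071), and 4.65% of tested genes differed between the controls (317 to 4422 genes). The highest counts for PB 600 ppm and the controls came with median centring. The share called higher was 43.6% of called genes at PB 600 ppm, 55.8% at 6K DEHP and 51.1% at 12K BBP, and 96.2%, 88.1% and 88.1% with median centring, where the median of all tested genes moved by 0.536, 0.145 and 0.0612. Changes in levels near background have no firm size on these arrays.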
